A study of Homo sapiens with 9 samples.

Results

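The genes described here are 43 interferon-stimulated genes and regulators of the interferon response in a hepatoma cell line. They were picked out of the count tables by matching Ensembl identifiers to a list of symbols, and are 43 of the 58219 genes counted in each sample. They fall into 5 roles, which are 25 effectors, 6 sensors of foreign RNA and 2-5A synthetases, 5 genes of ISG15 conjugation, 4 STAT and IRF regulators and 3 regulators of the PARP and DTX3L family. Gene expression was measured by stranded sequencing of polyadenylated RNA in PLC/PRF/5, a human hepatoma cell line, which stably expressed the Src-family tyrosine kinase YES. In 4 samples the expressed YES was wild type, and in 5 samples it carried T348I, a substitution of the gatekeeper residue, which lines the pocket where ATP and many inhibitors bind. Dasatinib, which inhibits kinases of the Src and ABL families, was present at 100 nM in all 9 samples, and no sample without the drug was analysed here. Each value therefore compares T348I with wild type under the drug, and every sample of both groups carries introduced YES. The labels do not say whether a line is 1 clone, nor that replicates are independent cultures. The p-values are therefore relative to the scatter of these 9 samples alone, and that scatter may be technical.

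Interferons are secreted proteins that warn cells of infection. Type I interferon binds the receptor chains IFNAR1 and IFNAR2, whose kinases JAK1 and TYK2 phosphorylate STAT proteins, and STAT2 then joins a STAT partner and IRF9 in a complex that binds the interferon-stimulated response element (ISRE) in the promoters of target genes. Many targets block virus entry, translation or replication, and some feed back on the pathway, such as USP18, which removes ISG15 from proteins and dampens signalling at the receptor.

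Promoter sequences show what many of these genes have in common. RefSeq windows on build GRCh38.p14, from 250 bases before to 50 bases after a RefSeq start of the gene, were matched for 34 of the 43 genes. The first window listed for each symbol was used. In a check against GENCODE transcripts of the same genes, 81.25% of windows ended near the start of a transcript. The window of PARP9 lay outside its GENCODE span and that of IFI27 well inside its span, so some windows may miss the start in use. The windows of IFIT2, IFITM2, MX2, GBP2, TRIM22, OAS2, OASL, USP18 and IRF7 were not analysed here. The core letters of the ISRE, which are GAAA, any 2 bases and GAAA again on either strand, matches overlapping each other allowed, occurred in 22 of the 34 windows (64.7%), against 3.65% of all 27305 promoter windows and 2.68% of the 10714 windows of genes tested here. These stretches are shown because they carry such matches upstream of the start in members that differ in response. Each is written 5′ to 3′ on the strand of its gene, and capitals mark the ISRE core or its reverse complement. The first 5 belong to genes called higher in T348I, and the last 3 to genes that did not pass the test. The stretch of IFIT1 lies at chr10:89392492-89392544 (plus strand), IFI6 at chr1:27672261-27672363 (minus strand), ISG15 at chr1:1013369-1013414 (plus strand), IFITM3 at chr11:320871-320927 (minus strand), DDX60 at chr4:168318781-168318855 (minus strand), IFIT5 at chr10:89414508-89414567 (plus strand), BST2 at chr19:17405730-17405775 (minus strand) and HERC5 at chr4:88456979-88457069 (plus strand).
IFIT1: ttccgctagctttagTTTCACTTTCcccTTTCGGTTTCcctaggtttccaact
IFI6: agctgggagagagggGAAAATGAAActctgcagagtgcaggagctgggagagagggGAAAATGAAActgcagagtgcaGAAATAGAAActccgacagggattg
ISG15: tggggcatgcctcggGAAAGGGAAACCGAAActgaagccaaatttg
IFITM3: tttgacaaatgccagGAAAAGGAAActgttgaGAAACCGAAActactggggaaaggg
DDX60: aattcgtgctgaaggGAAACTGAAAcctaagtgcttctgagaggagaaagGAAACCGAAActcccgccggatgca
IFIT5: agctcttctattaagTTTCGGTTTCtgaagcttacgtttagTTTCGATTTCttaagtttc
BST2: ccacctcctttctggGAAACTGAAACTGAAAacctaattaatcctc
HERC5: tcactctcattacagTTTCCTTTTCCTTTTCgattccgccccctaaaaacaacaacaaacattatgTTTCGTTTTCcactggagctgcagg
The core occurred in 15 of 21 members called higher (71.4%), in 3 of 6 that did not pass the test and in 4 of 7 that had too few reads to test. Over all genes tested, members included, it occurred in 4.21% of windows of genes called higher, 1.33% of genes called lower and 2.64% of genes that did not pass. None of the 3 windows of STAT and IRF regulators (STAT2, IRF1 and IRF9) held it. The shorter palindrome of the gamma-activated site (GAS), TTCNNNGAA on either strand, which STAT dimers can bind, occurred in 10 of the 34 windows (29.4%) against 7.88% of all windows, among them IRF1 and IRF9. A match is only a run of letters, and a window without it says nothing of the factors that act there.

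The samples held 10381142 to 15799059 reads in genes. By the drug's spelling in their titles they form a dasatinib set (3 samples of each group) and a Dasa set (1 wild type, 2 T348I), and these stood apart. Genes of the mitochondrial genome, ribosomal RNAs included, took 7.38% to 9.44% of gene reads in the dasatinib set and 15.2% to 17.0% in the Dasa set, so the set was a term in every main test. YES1, the gene of YES, lay at 340.7 to 368.2 CPM (counts scaled to a common library size) in the wild-type samples, at 553.2 to 605.4 in T348I samples of the dasatinib set and at 973.8 and 1032 in those of the Dasa set. T348I samples thus held more YES1 RNA, 1.66-fold in the dasatinib set and 2.72-fold in the Dasa set, and its part in the results was not tested. Hepatocyte markers (ALB, AFP, APOB, TTR, SERPINA1, TF and HNF4A) summed to 4774 to 7852 CPM in wild type and 4701 to 5824 in T348I, with ALB only at 1.16 to 4.66 CPM and TTR under 0.38. Of the 6 that were tested, 4 fell (ALB, AFP, TF and HNF4A). Of 7 leukocyte markers, FCGR3A and NKG7 had no read and the sum of all but LYZ was 0.183 to 0.677 CPM in wild type and 0.341 to 0.77 in T348I. LYZ was at 802.9 to 1404 CPM in every sample and did not pass the test. A list of 7 fibroblast and endothelial markers summed to 4.59 to 11.4 CPM in wild type and 5.94 to 13.3 in T348I, of which COL1A1 made up the larger share and was called higher (log2 fold change 0.52).

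Most interferon-stimulated genes that could be tested were higher in T348I cells. Of 43 members, 34 passed the filter on low counts and 9 did not, and of these 34, 27 were called higher, 1 was called lower and 6 did not pass the edgeR test at an adjusted p of 0.05. Among all 14617 genes tested, 42.5% were called in either direction, 20.7% higher and 21.8% lower. The counts of each role and list below stand against these same shares. A filter that a gene passes only through the group where it is high favours a difference, and this held for IFIT3, IFI27, MX1, MX2, XAF1, DDX60, OAS2 and OASL. For the 26 members that wild-type samples alone would have carried over the filter, 19 were higher, 1 was lower (GBP2, a guanylate-binding GTPase) and 6 did not pass, with a median log2 fold change of 0.65. The median over all genes tested was -0.0077. A rise of 2-fold or more was called for 16 members, 8 of them among these 26, against 2.43% of all genes. Every T348I sample lay above every wild-type sample for 23 members, 15 of them among the 26, against 10.2% of all genes, and for GBP2 every T348I sample lay below.

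**Figure D1:**
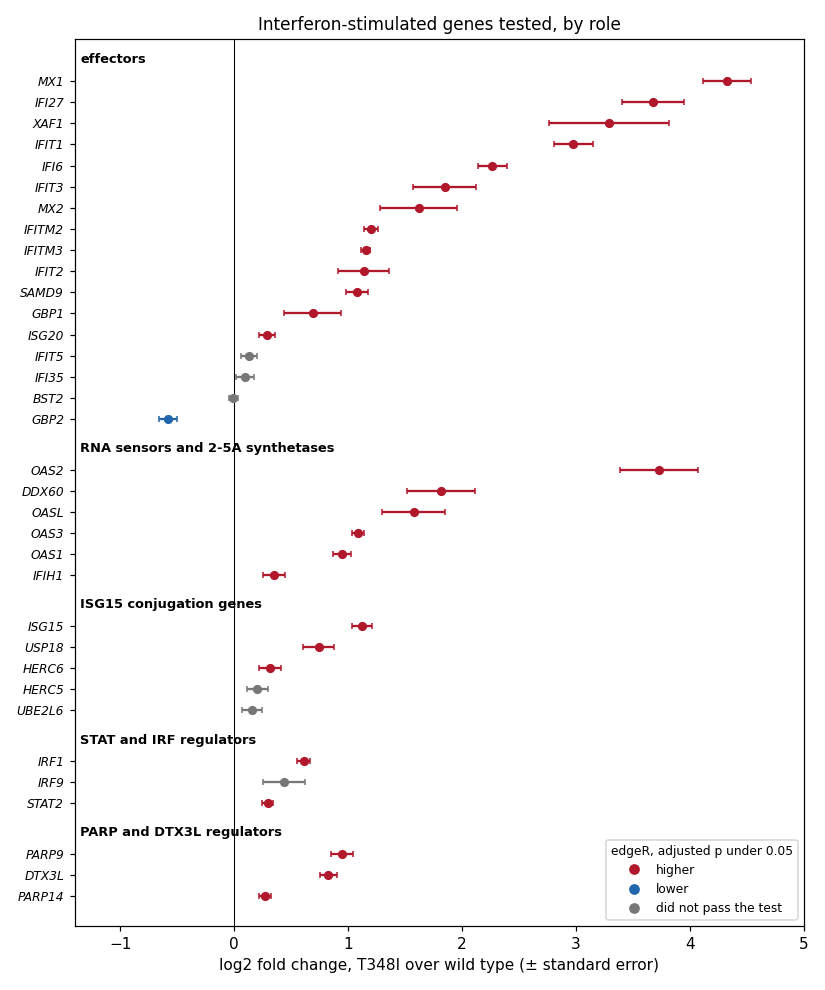
Log2 fold change of T348I over wild type for the 34 members tested, grouped by role; points are edgeR estimates, bars are ± 1 standard error, and colour gives the call at an adjusted p of 0.05. MX1 lies furthest right at 4.33, GBP2 alone is called lower at -0.58, and IFIT5, IFI35, BST2, HERC5, UBE2L6 and IRF9 did not pass.

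The effectors, proteins that act on viruses or infected cells, held the largest fold, that of MX1. Of 25 listed, 17 were tested, 13 rose, GBP2 fell and IFIT5, IFI35 and BST2 did not pass, with a median log2 fold change of 1.15, although IFIT3, IFI27, MX1, MX2 and XAF1 passed the filter only through T348I. In what follows, CPM values are given for wild type in the order dasatinib replicates 1, 2 and 3 and Dasa replicate 1, and for T348I in the order dasatinib replicates 1, 2 and 3 and Dasa replicates 1 and 2. IFITM3, a membrane protein that hinders the fusion of incoming viruses, measured 138, 153, 148 and 117 CPM in wild type and 312, 326, 309.5, 274 and 284 CPM in T348I. The groups were far apart relative to their spread, and the Dasa samples were the lowest of each group. The log2 fold change was 1.15 (SE 0.042, edgeR adjusted p = 3.5e-14), which is 2.23-fold. Its relative IFITM2 showed 17.3, 16.7, 15.4 and 11.6 CPM and 40.3, 36.7, 36.6, 25.8 and 27.6 CPM in the same order. Here too no T348I sample reached down to the wild-type samples, and the log2 fold change was 1.201 (SE 0.063, edgeR adjusted p = 1.1e-11). IFITM2 shares 34.1% of its 50-base words with other genes and IFITM3 17.4%, mostly with each other and IFITM1, and IFITM2 overlaps IFITM1 on the same strand, so how reads were split among these genes is uncertain.

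MX1, a dynamin-like GTPase that traps viral nucleocapsids, had the largest fold of all members and place 41 among all genes tested when ranked from the largest rise. Its levels were 0.548, 1.01, 0.542 and 0.455 CPM in wild type and 9.14, 10.2, 11.2, 17.2 and 22.3 CPM in T348I. All 4 wild-type samples were at or below 1.01 CPM and all 5 T348I samples were above them. In bulk samples, more RNA per cell and more cells with the RNA cannot be told apart. The log2 fold change was 4.33 (SE 0.21, edgeR adjusted p = 3.9e-12), and 33 wild-type reads stood against 929 T348I reads, a depth-adjusted ratio of 21.9 (95% exact interval 15.5 to 32.0, counting error only). IFIT1, which binds RNA lacking the cap methylation of host messages, measured 2.05, 2.47, 2.03 and 1.52 CPM in wild type and 13.8, 12.3, 12.1, 23.3 and 27.0 CPM in T348I. All T348I samples were above all wild-type samples, and those of the Dasa set were the highest. The log2 fold change was 2.98 (SE 0.17, edgeR adjusted p = 5.1e-11). IFI6, a small protein of the endoplasmic reticulum that acts against flaviviruses, measured 10.5, 13.9, 11.3 and 9.17 CPM in wild type and 40.5, 49.1, 46.5, 73.0 and 78.3 CPM in T348I. The same order held, with the Dasa samples highest in T348I, at a log2 fold change of 2.27 (SE 0.13, edgeR adjusted p = 4.1e-11).

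Other effectors rose from very few reads. IFI27, a mitochondrial protein and a common marker of interferon exposure, had 17 wild-type and 327 T348I reads, a ratio of 14.95 (9.20 to 26.0). XAF1, a pro-apoptotic antagonist of XIAP, had 5 and 77 reads, a ratio of 12.0 (4.91 to 37.9). The IFIT1 partner IFIT3 had 34 and 185 reads, a ratio of 4.23 (2.92 to 6.29), and MX2, which acts at the nuclear pore against HIV, had 15 and 58 reads, a ratio of 3.01 (1.68 to 5.71). These intervals are 95% exact intervals of the read ratio and cover counting error only. IFIT2 and SAMD9 had enough reads in wild type, and rose by log2 fold changes of 1.14 (edgeR adjusted p = 3.6e-04) and 1.08 (edgeR adjusted p = 2.2e-08). ISG20, an RNA exonuclease, rose by only 0.29 on the log2 scale with groups that overlapped (edgeR adjusted p = 0.0030), and the call was lost without the set in the model (0.20, edgeR adjusted p = 0.54). GBP1, a GTPase that coats bacteria and vacuoles, rose by 0.69 (SE 0.25, edgeR adjusted p = 0.032) but its groups overlapped. The call was lost when any of 5 samples was left out alone (wild-type dasatinib replicates 1, 2 and 3, T348I dasatinib replicates 2 and 3), with log2 fold changes of 0.49 to 0.68, and without the set in the model (0.87, edgeR adjusted p = 0.25).

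Some effectors did not follow. GBP2 measured 41.8, 42.3, 38.1 and 43.2 CPM in wild type and 30.9, 28.4, 33.1, 22.5 and 21.6 CPM in T348I. Every T348I sample was below every wild-type sample and the Dasa samples were lowest, at a log2 fold change of -0.58 (SE 0.082, edgeR adjusted p = 1.1e-05). GBP1 and GBP2 are neighbours at chr1:89052319-89150456, and they share 9.62% and 10.2% of their 50-base words with other genes, each other among them. BST2, or tetherin, which holds budding virus at the cell surface, measured 101, 97.7, 104 and 66.2 CPM in wild type and 102, 105, 99.4, 63.7 and 60.8 CPM in T348I. In both groups the Dasa samples were lowest, and the log2 fold change between groups was -0.0092 (SE 0.040, edgeR adjusted p = 0.88). IFIT5 had a log2 fold change of 0.13 (SE 0.070, edgeR adjusted p = 0.14) and IFI35 one of 0.096 (SE 0.080, edgeR adjusted p = 0.36).

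**Figure D2:**
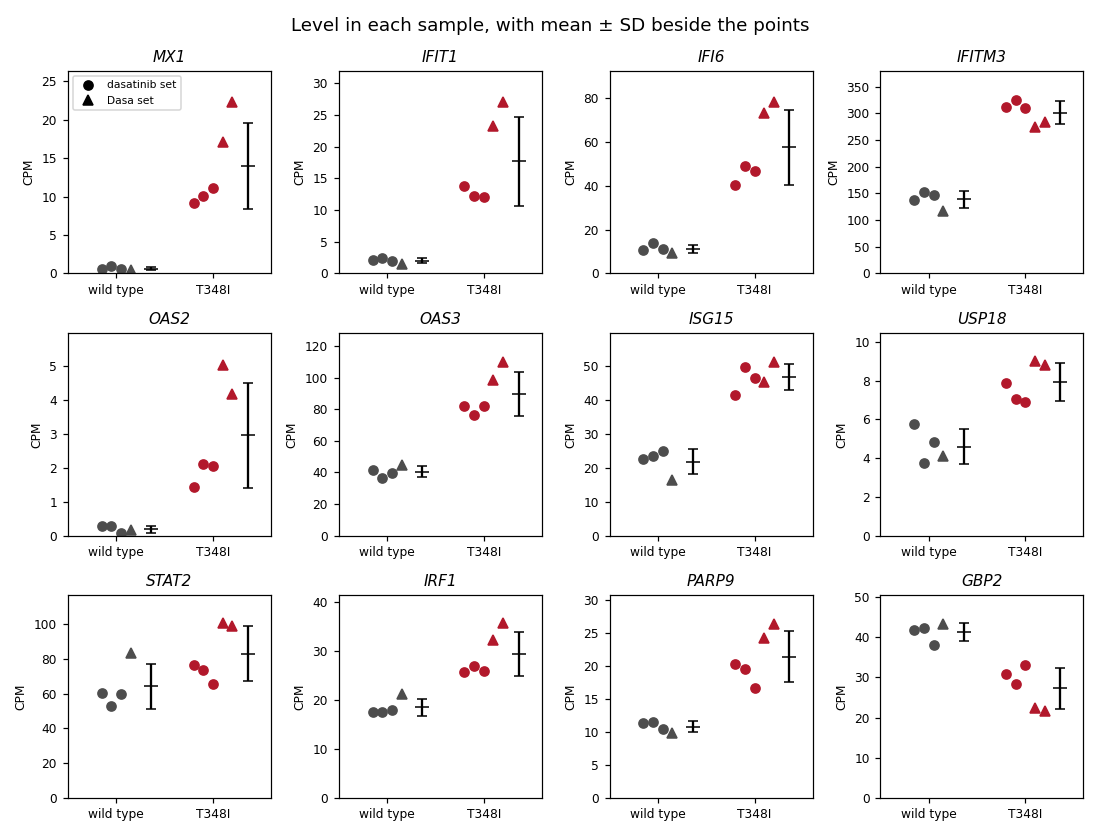
CPM of 12 members in each sample, with wild type in grey, T348I in red, circles for the dasatinib set and triangles for the Dasa set; the bar beside each group is its mean ± SD (n = 4 wild type, n = 5 T348I) and each vertical axis starts at 0. MX1, IFIT1 and IFI6 separate without overlap and are highest in the T348I Dasa samples, STAT2 overlaps between the groups, and GBP2 is lower in T348I.

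All 6 sensors and 2-5A synthetases were tested and all 6 rose, where 20.7% of all genes tested were called higher. The median log2 fold change was 1.33, although OAS2, OASL and DDX60 passed the filter only through T348I. IFIH1, OAS1 and OAS3, which wild-type samples alone carried over the filter, had 0.35, 0.95 and 1.09. The OAS enzymes make 2′-5′ oligoadenylate on contact with double-stranded RNA, which activates the nuclease RNase L. OAS3 measured 41.6, 36.3, 39.5 and 44.5 CPM in wild type and 81.7, 76.1, 82.3, 98.4 and 109.8 CPM in T348I. The groups were separate, and the Dasa samples were highest in both, with a log2 fold change of 1.09 (SE 0.055, edgeR adjusted p = 6.6e-12). For OAS1 the values were 8.69, 9.87, 8.87 and 11.6 CPM in wild type and 19.7, 18.3, 17.2, 20.5 and 19.9 CPM in T348I. These groups did not overlap either, and the log2 fold change was 0.95 (SE 0.079, edgeR adjusted p = 1.3e-08). OAS2 rose from 0.274, 0.274, 0.0677 and 0.152 CPM to 1.44, 2.12, 2.07, 5.04 and 4.17 CPM. Its wild-type values rest on 10 reads in all against 201 in T348I, a ratio of 15.6 (95% exact interval 8.32 to 33.1), and the fitted log2 fold change was 3.73 (SE 0.34, edgeR adjusted p = 4.3e-08).

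DDX60, a helicase that assists RNA sensing, measured 0.411, 0.274, 0.271 and 0.455 CPM in wild type and 1.35, 1.03, 1.21, 1.36 and 1.82 CPM in T348I. OASL, an OAS relative without enzyme activity, measured 0.342, 0.548, 0.542 and 0.606 CPM and 1.25, 1.93, 1.38, 1.499 and 1.44 CPM. Both genes were low in every sample and did not overlap between groups. Their read ratios were 3.60 (95% exact interval 2.18 to 6.26) for DDX60 and 2.88 (1.87 to 4.58) for OASL, with edgeR adjusted p of 6.1e-05 and 1.2e-04. IFIH1, which encodes the long double-stranded RNA sensor MDA5, measured 15.5, 12.3, 12.1 and 11.4 CPM in wild type and 14.2, 17.0, 16.1, 16.9 and 17.6 CPM in T348I. Its groups overlapped, its log2 fold change was 0.35 (SE 0.094, edgeR adjusted p = 0.0055), and without the set in the model the same fold (0.35) did not pass (edgeR adjusted p = 0.053).

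ISG15 is a ubiquitin-like protein, UBE2L6 the enzyme that carries it, HERC5 the main human ligase that attaches it, HERC6 a relative of that ligase, and USP18 the protease that removes it. Of these 5 genes, ISG15, USP18 and HERC6 rose and UBE2L6 and HERC5 did not pass, with a median log2 fold change of 0.31. ISG15 measured 22.6, 23.5, 24.9 and 16.4 CPM in wild type and 41.6, 49.7, 46.5, 45.2 and 51.1 CPM in T348I. Every T348I sample was above every wild-type sample, and the log2 fold change was 1.12 (SE 0.087, edgeR adjusted p = 3.9e-09). USP18 measured 5.75, 3.75, 4.81 and 4.09 CPM in wild type and 7.89, 7.07, 6.89, 8.99 and 8.79 CPM in T348I. Its groups were separate, at a log2 fold change of 0.74 (SE 0.13, edgeR adjusted p = 1.7e-04), and 23.4% of its 50-base words occur in other genes, USP41 among them, so its counts are uncertain.

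Of the ligase genes, HERC6 passed and HERC5 did not. HERC6 measured 11.4, 11.7, 9.27 and 11.2 CPM in wild type and 13.1, 13.8, 13.3, 15.5 and 11.9 CPM in T348I. These groups did not overlap and the log2 fold change was 0.31 (SE 0.095, edgeR adjusted p = 0.012), but the call was lost without wild-type dasatinib replicate 3 (0.25, edgeR adjusted p = 0.054) and without the set in the model (0.31, edgeR adjusted p = 0.070). HERC5 measured 15.1, 20.3, 16.9 and 9.47 CPM in wild type and 18.8, 18.3, 17.7, 13.8 and 14.5 CPM in T348I. The groups overlapped, and the log2 fold change of 0.20 (SE 0.096, edgeR adjusted p = 0.094) passed only without wild-type dasatinib replicate 2 (0.30, edgeR adjusted p = 0.010). UBE2L6 measured 11.6, 10.5, 12.1 and 9.40 CPM in wild type and 13.2, 14.6, 12.1, 9.61 and 8.79 CPM in T348I. Its groups overlapped too, at a log2 fold change of 0.16 (SE 0.090, edgeR adjusted p = 0.17).

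The STAT and IRF regulators are the transcription factors that carry the signal to the promoters. Of 4 listed, 3 were tested, IRF1 and STAT2 rose and IRF9 did not pass, with a median log2 fold change of 0.44. IRF1, a transcription factor that responds mainly to interferon gamma and other cytokines, measured 17.6, 17.5, 17.9 and 21.2 CPM in wild type and 25.7, 26.9, 26.0, 32.4 and 35.7 CPM in T348I. No T348I sample was as low as a wild-type sample, and the log2 fold change was 0.61 (SE 0.060, edgeR adjusted p = 1.1e-07). STAT2 measured 60.6, 53.0, 59.8 and 83.3 CPM in wild type and 76.8, 73.5, 65.8, 101 and 98.8 CPM in T348I. The wild-type Dasa sample was above all 3 T348I dasatinib samples, so the groups overlapped. Within the sets the log2 fold changes were 0.31 and 0.26, and the model with the set gave 0.29 (SE 0.050, edgeR adjusted p = 8.8e-05), while the model without it gave 0.37 and edgeR adjusted p = 0.15. IRF9, the DNA-binding partner of STAT2, measured 1.57, 0.914, 1.15 and 3.03 CPM in wild type and 1.73, 1.73, 1.55, 4.22 and 4.01 CPM in T348I. In both groups the Dasa samples were the highest. Its log2 fold change was 0.44 (SE 0.19, edgeR adjusted p = 0.064), passing only without wild-type dasatinib replicate 1 (0.54, edgeR adjusted p = 0.034), and 43.6% of its 50-base words occur in other genes, so its counts are uncertain. IRF7, a factor for later interferon production, had no read on the sense strand in any sample, and 27 reads in all on the other strand. A count of 0 allows up to 3 reads over the 52222928 gene reads of wild type and the 67180273 of T348I. This limit covers only reads assigned to the gene.

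PARP9, DTX3L and PARP14 encode an ADP-ribosylation complex of PARP9 with the ubiquitin ligase DTX3L, which acts with STAT proteins, and a mono-ADP-ribosyltransferase of macrodomain type. All 3 rose, and in each every T348I sample was above every wild-type sample. Of all genes tested, 20.7% were called higher and 10.2% had every T348I sample above. PARP9 measured 11.4, 11.5, 10.5 and 9.78 CPM in wild type and 20.4, 19.5, 16.6, 24.3 and 26.4 CPM in T348I. Its log2 fold change was 0.95 (SE 0.10, edgeR adjusted p = 3.4e-07). DTX3L measured 19.6, 21.5, 22.1 and 21.7 CPM in wild type and 36.2, 35.7, 30.6, 45.6 and 47.6 CPM in T348I, a log2 fold change of 0.83 (SE 0.076, edgeR adjusted p = 4.3e-08). PARP9 and DTX3L lie head to head at chr3:122527924-122575203 and overlap at their starts on opposite strands. For PARP14 the values were 27.7, 28.5, 27.3 and 28.5 CPM and 35.7, 33.0, 32.0, 36.2 and 33.0 CPM. The groups were separate by a small margin, at a log2 fold change of 0.27 (SE 0.055, edgeR adjusted p = 4.7e-04).

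The 9 members under the filter held too few reads for the test and are given by reads. RSAD2, which encodes the antiviral enzyme viperin, had 0 wild-type reads and 18 T348I reads. With a floor of 3 reads for the whole wild-type group, the ratio was 4.66. This takes the T348I reads as exact, so it is not a lower limit. IFI44 had 0 and 16 reads, a ratio of 4.15 with the same floor. IFI44L had 0 and 13 reads, a ratio of 3.37 with that floor, with no read in T348I Dasa replicate 2. Reads of IFI44 and RSAD2 appeared in all 5 T348I samples. TRIM22, a ubiquitin ligase of antiviral function, had 5 and 38 reads, a ratio of 5.91 (95% exact interval 2.32 to 19.2). SAMD9L had 4 and 25 reads, a ratio of 4.86 (1.68 to 19.2), IFITM1 had 3 and 18, a ratio of 4.66 (1.36 to 24.7), and CMPK2, a mitochondrial nucleotide kinase, had 22 and 52, a ratio of 1.84 (1.10 to 3.18). EPSTI1 had 3 and 1 reads, a ratio of 0.259 (0.0049 to 3.23), too few to show a direction. These intervals carry no replicate error.

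Levels per kilobase of exon rank only the members whose exon length was available. IFITM3 was highest in both groups, at 103.1 ± 12.0 CPM per kilobase in wild type (SD, n = 4) and 223.3 ± 15.9 in T348I (SD, n = 5). By group mean BST2 followed, at 82.4 ± 15.6 and 77.2 ± 19.8. In wild type IFI6 (13.0 ± 2.30), IFI35 (10.7 ± 1.99), STAT2 (10.5 ± 2.16) and IFITM2 (9.87 ± 1.65) came next and did not differ beyond their spread. In T348I IFI6 came next by mean at 66.4 ± 19.6, not apart from BST2 by more than these SDs, ahead of IFITM2 at 21.7 ± 4.11. The SDs span both sets, and the order of IFI6 and BST2 turned between them. Per kilobase, BST2 was above IFI6 in every T348I dasatinib sample and below it in both T348I Dasa samples. MX1, despite the largest fold, reached only 1.62 ± 0.65 CPM per kilobase in T348I, from 0.074 ± 0.029. The lengths come from GENCODE release 29, and IFIH1, ISG15, IRF7 and PARP14 were left out because their gene version differs there. These genes have no place in this order. Without division by length, ISG15 had a mean of 21.8 CPM in wild type and 46.8 in T348I, against 15.2 and 33.4 for IFITM2.

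Several members are neighbours in the genome, and the calls of neighbours sometimes differed. The IFIT genes lie in the order IFIT2, IFIT3, IFIT1 and IFIT5 at chr10:89283694-89421001, with log2 fold changes of 1.14, 1.85, 2.98 and 0.13, the last not passing. IFIT5 starts 8100 bases after the end of IFIT1, and its promoter window held 3 matches to the ISRE core. OAS1, OAS3 and OAS2 lie in that order at chr12:112906777-113011723, with log2 fold changes of 0.95, 1.09 and 3.73. MX2 and MX1 lie at chr21:41361943-41459214, and both rose. HERC6 and HERC5 lie at chr4:88378739-88506163, and only the former passed. The coordinates are those of GENCODE release 29 on GRCh38, and the differences between neighbours were not tested.

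The folds fitted within each set were compared for the same genes. The fitted log2 fold change was above 0 in both sets for 31 of 34 members, 23 of them among the 26 that wild-type samples alone carried over the filter, against 37.6% of all genes tested. It was below 0 in both for GBP2. In 22 of 34 members, 17 of them among the 26, it was larger in the Dasa set, against 48.9% of all genes. The test of the difference between sets passed for 6 members, against 7.33% of all genes. Its spread comes from the other 3 combinations of set and group, and the lone wild-type Dasa sample is assumed to vary like them. For IFIT1 the log2 fold change was 2.54 in the dasatinib set and 4.04 in the Dasa set (difference 1.497, SE 0.34, edgeR adjusted p = 0.0034). IFI6 had 1.96 and 3.04 (difference 1.08, SE 0.17, edgeR adjusted p = 4.1e-05). For ISG15 the values were 0.97 and 1.55 (edgeR adjusted p = 0.0052), for PARP9 0.76 and 1.37 (edgeR adjusted p = 0.022) and for DTX3L 0.70 and 1.10 (edgeR adjusted p = 0.049). GBP2 fell further in the Dasa set, with -0.41 and -0.97 (edgeR adjusted p = 0.0013). The calls of PARP9 and DTX3L were lost when some samples were left out, that of DTX3L also with upper quartile scaling and without a filter, and 4 members (IFIT1, IFI6, ISG15 and GBP2) passed in every run that left out 1 sample and could be fitted. The Dasa set holds 1 wild-type sample, so its fold rests on that library, and the difference cannot be tested without it. YES1 itself rose by 0.73 in the dasatinib set and 1.45 in the Dasa set on the log2 scale, and its part in these differences was not tested.

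**Figure D3:**
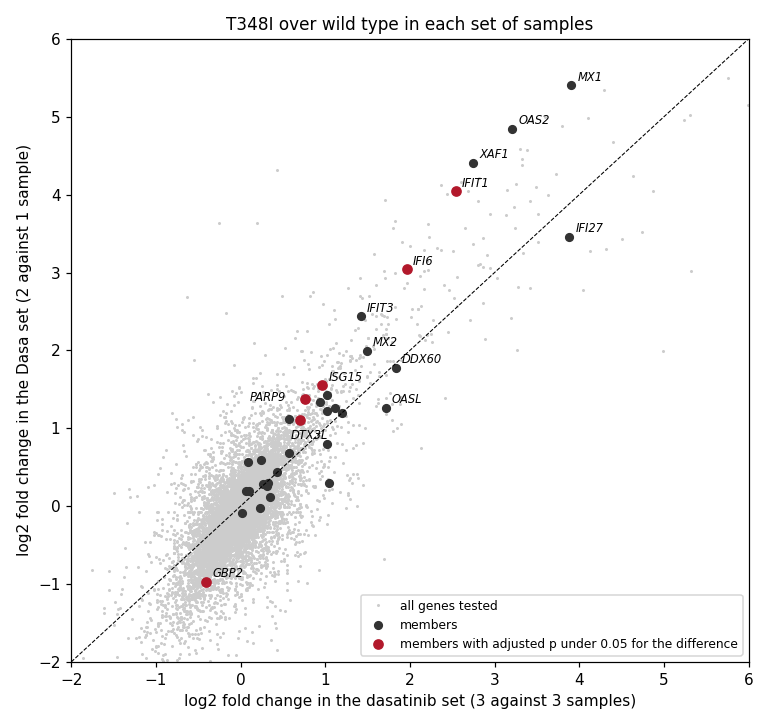
Log2 fold change of T348I over wild type in the dasatinib set (horizontal axis, 3 against 3 samples) and in the Dasa set (vertical axis, 2 against 1 sample) for members (dark points), members whose fold differed between the sets (red) and all genes tested (grey, those beyond the axis limits not shown); the dashed line marks equal folds. IFIT1 (2.54 and 4.04) and IFI6 (1.96 and 3.04) lie above the line, and GBP2 (-0.41 and -0.97) lies below it.

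The RNAs of the interferons themselves were hardly detected. Of 21 interferon genes of type I, II and III, 19 had no read in any sample, and IFNK and IFNL2 had 1 read each, both in T348I samples. A count of 0 allows up to 3 reads over each group. Of 9 receptor chains and kinases, all tested, IFNGR2, a chain of the interferon gamma receptor, rose by 0.27 on the log2 scale (edgeR adjusted p = 2.9e-05), IFNAR2 fell by 0.15 (edgeR adjusted p = 0.013), and IFNAR1, IFNGR1, IFNLR1, IL10RB, JAK1, JAK2 and TYK2 did not pass. Their median log2 fold change was 0.024. In the dasatinib and Dasa sets the log2 fold changes were -0.069 and -0.33 for IFNAR2 and 0.23 and 0.39 for IFNGR2. The groups of both genes overlapped, and the Dasa values rest on a lone wild-type sample. Over all genes tested, 42.5% were called, 20.7% higher and 21.8% lower.

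In nucleic acid sensing and its relay to interferon genes, 11 of 17 listed genes were tested. Of these, 6 rose, 3 fell and 2 did not pass, where 20.7% of all genes tested were called higher and 21.8% lower. The median log2 fold change was 0.15. STING1, the adaptor of cytosolic DNA sensing, rose by 1.35 (SE 0.27, edgeR adjusted p = 5.0e-04). Its level went from 0.787 ± 0.254 CPM in wild type (SD, n = 4) to 2.32 ± 1.26 in T348I (SD, n = 5). The groups overlapped, and STING1 passed the filter only through T348I. These SDs span both sets, and its T348I values were highest in Dasa replicates 1 and 2, at 3.34 and 3.94 CPM. TICAM1, an adaptor of Toll-like receptor signalling, rose by 0.56, TRIM25 and EIF2AK2 by 0.25, IRF3 by 0.17 and ADAR by 0.15. IRF5 fell by 0.70, the kinase IKBKE by 0.42 and the adaptor MAVS by 0.12. In the dasatinib and Dasa sets the log2 fold changes were -0.52 and -1.16 for IRF5 and -0.33 and -0.62 for IKBKE. Those of MAVS were -0.065 and -0.23, with groups that overlapped. The Dasa values rest on the lone wild-type sample of that set. The DNA sensor IFI16 was under the filter with 7 wild-type and 54 T348I reads, a ratio of 5.997 (95% exact interval 2.72 to 15.6).

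Negative regulators held the largest fold of the surrounding pathway. SOCS3 shuts off JAK kinases at cytokine receptors. It rose from 5.30 ± 1.20 CPM in wild type (SD, n = 4) to 80.2 ± 36.3 in T348I (SD, n = 5). The log2 fold change was 3.71 (SE 0.088, edgeR adjusted p = 5.8e-17). The T348I SD pools sets that lay apart. Dasatinib replicates 1, 2 and 3 of T348I measured 55.0, 54.6 and 51.8 CPM, while Dasa replicates 1 and 2 measured 114.6 and 124.7. Fitted by set, SOCS3 had log2 fold changes of 3.49 (dasatinib) and 4.10 (Dasa), the latter resting on a lone wild-type sample. SOCS1, its relative, rose by 1.81 (SE 0.26, edgeR adjusted p = 1.4e-05), and NLRC5, an activator of MHC class I genes that also restrains signalling, by 1.29 (SE 0.27, edgeR adjusted p = 7.9e-04). Both passed the filter only through T348I, which favours a difference. IRF2BP2 and OTUD4 rose by 0.14 and 0.12, and the phosphatase PTPN6 fell by 0.29. In the dasatinib and Dasa sets the log2 fold changes were 0.071 and 0.29 for IRF2BP2 and 0.12 and 0.12 for OTUD4. Those of PTPN6 were -0.17 and -0.54. The other 7 of 13 tested, PTPN2, PTPN11, PIAS1, PIAS4, TRIM27, IRF2 and RNF125, did not pass, and the median log2 fold change was 0.077. Over all genes tested, 20.7% were called higher and 21.8% lower.

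**Figure D4:**
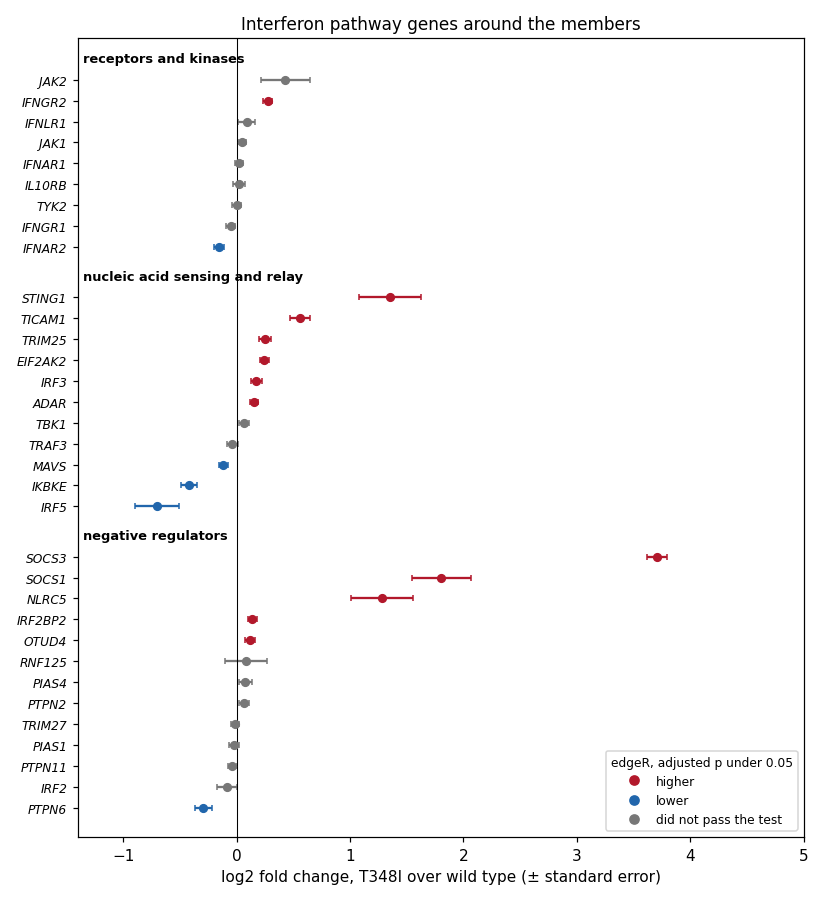
Log2 fold change of T348I over wild type for the tested receptors and kinases, nucleic acid sensing genes and negative regulators of the interferon pathway; points are edgeR estimates, bars are ± 1 standard error and colour gives the call. Receptors and kinases lie between -0.15 and 0.43, and SOCS3 at 3.71, SOCS1 at 1.81, STING1 at 1.35 and NLRC5 at 1.29 stand to the right, of which SOCS1, STING1 and NLRC5 passed the filter only through T348I.

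A wider list of 59 interferon-stimulated genes that are not members held 46 tested genes, of which 28 rose, 4 fell and 14 did not pass, with a median log2 fold change of 0.31. Those with the smallest p were BATF2, a transcription factor (1.87), PLSCR1, a phospholipid scramblase that restricts viruses (0.93), HELZ2, a helicase (1.02), PARP12 (0.70), SP100, a scaffold of nuclear bodies (0.67), and its relative SP110 (0.78), with edgeR adjusted p of 1.2e-09 to 1.8e-07. In each of these 6 genes every T348I sample was above every wild-type sample, which choosing by the smallest p favours. Of all 46 tested, this held for 18, against 10.2% of all genes tested. In 3 of the 46 every T348I sample was below. CXCL10, a chemokine widely used to mark an interferon response, was under the filter and went the other way, with 20 wild-type and 8 T348I reads, a ratio of 0.311 (95% exact interval 0.119 to 0.737). CXCL10 and IFI16 were chosen for mention after their values were seen. Over all surrounding pathway genes, 49 of 79 tested were called, 40 higher and 9 lower, where 42.5% of all genes tested were called, 20.7% higher and 21.8% lower. Of these 79, 6 passed the filter only through T348I, and of the other 73, 34 were higher and 9 lower. Without the set in the model 27 of the 79 were called, and 2350 of all 14617 genes.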

How the data were processed

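RNA abundance was measured in 9 samples, 4 of wild-type and 5 of T348I YES. The authors deposited raw counts of reads per gene, 1 table per sample, for which the submitters' processing notes name STAR 2.5.1b, Trimmomatic 0.35, CASAVA 1.8.2 and build GRCh38. Annotation release and read filters: not given in the sources used here. Per the labels' protocols the library kit was KAPA's stranded kit for polyadenylated RNA, and column 4 of the tables, the sense strand, was used. The other strand added 5.48% to 5.91%. Rows that name no gene (22.2% to 29.8% of the reads) entered neither library sizes nor tests. They include multimapping reads, so genes with near-identical copies read too low.

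Of 58219 identifiers, 57437 matched a symbol and 55050 had the same version in GENCODE release 29, from which coordinates and exon lengths were taken. Groups follow the labels, and sets follow the spelling of the drug in the titles, which the labels do not call a batch. The test was that of edgeR 4.0.16 in R 4.3.3: filterByExpr (0.715 CPM or more in at least 4 samples), TMM scaling and the quasi-likelihood F-test, two-sided, with set and group as terms. Benjamini-Hochberg adjustment covered the 14617 genes that passed, and 0.05 was the threshold, whatever the fold. An interaction of set and group tested whether folds differ between sets. CPM values use TMM-adjusted library sizes. Each standard error is the size of the fold over the root of F. Read ratios carry 95% exact binomial intervals (Clopper-Pearson, SciPy 1.17.1). A group with 0 reads was set to a floor of 3, and that ratio takes the reads of the other group as exact. The intervals and the floor hold counting error alone, as these reads lack molecular identifiers and are not independent molecules. The fit was also run on simulated counts with known changes between groups and no difference between sets. That run is not used as support here, since the sets of these data differed.

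The members and lists were chosen with earlier results of these data known, so the lists are no independent evidence of their direction. All members are named. Values per sample are given for up to 5 members of each role with the smallest p and for members whose fold differed between sets, and, chosen after their values were seen, for IFIH1 and BST2. Named from the surrounding lists are the genes called, or in the largest list the 6 with the smallest p. Some genes of this pathway are not reported here. Alternatives were DESeq2 1.42.0, upper quartile scaling, no filter, no set term, the dasatinib set alone, a replicate block, counts without regard to strand and leaving out each sample.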

Additional observations from a re-analysis of the deposited data

Results flagged for a closer look

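The log2 fold change of T348I over wild type differed between the sets by the interaction test for 6 members. The difference, Dasa set minus dasatinib set, was 1.497 for IFIT1, 1.08 for IFI6, 0.59 for ISG15, 0.61 for PARP9, 0.40 for DTX3L and -0.56 for GBP2. Only 1 wild-type library carries each Dasa value.

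In 3 members 1 wild-type sample lay far from the other 3, with a gap to its neighbour above Dixon's 95% critical value for 4 samples. Chance flags about 1 in 20 groups of like samples, but 1 of these 4 samples belonged to the other set. MX1 was highest in wild-type dasatinib replicate 2, at 1.01 CPM. BST2 was lowest in wild-type Dasa replicate 1, at 66.2 CPM, and IRF1 was highest in that sample, at 21.2 CPM. It is the only wild-type sample of the Dasa set. Among T348I samples, too, those of the Dasa set were lowest for BST2 and highest for IRF1.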

How the results depend on the processing

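No called member changed direction in any of the 16 alternatives that gave it a value. BST2, not called and near 0, turned from -0.0092 to 0.027 in the dasatinib set alone, 0.0036 with the replicate block, and -0.031 to 0.027 when a sample was left out, above 0 without wild-type Dasa replicate 1 (0.027) or T348I Dasa replicate 2 (0.0094). Of 34 members tested, 26 kept their direction and their side of the threshold wherever they had a value, 22 of them called higher, 1 lower and 3 not called. XAF1 had a value in 10 alternatives and MX2 in 15, since they fell under the filter in the others. The count of 28 members called was 28 with DESeq2 and with upper quartile scaling, 27 without regard to strand, 33 of 42 without a filter, 26 of 32 in the dasatinib set alone, 23 without a set term and 26 to 28 when a sample was left out. Over all genes, 6212 were called in the main run, 5072 with DESeq2, 6224 with upper quartile scaling and 6127 without regard to strand. The count was 6203 of about 31300 without a filter and 5041 of about 14170 in the dasatinib set alone. It was 2350 without a set term, 5372 with the replicate block and 5131 to 5925 when a sample was left out. The median log2 fold change of members tested, 0.95, ranged from 0.86 in the dasatinib set alone to 1.07 without a filter, and from 0.91 to 0.97 when a sample was left out. The count of 49 surrounding pathway genes called fell to 27 without a set term, where the count over all genes fell from 6212 to 2350, and was 42 to 50 when a sample was left out. The count of 6 members whose fold differed between sets was 4 to 7 when a sample was left out, and 5 with upper quartile scaling and without a filter, both without DTX3L. This test could not be fitted without wild-type Dasa replicate 1. Replicate numbers are shared by wild type and T348I in the dasatinib set, but same-numbered samples did not deviate together (correlations -0.0077, -0.076 and 0.0033), so the numbers were not taken as pairs. With the replicate block 27 members and 45 pathway genes were called, the median was 0.93 and GBP1 lost its call (0.69, edgeR adjusted p = 0.062). Depth limits the members under the filter, for which the reads show at most a ratio with a wide interval.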
